A study of Oryctolagus cuniculus with 3 samples.

Results

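The insulin-like growth factor (IGF) axis was followed in the aortic media of rabbits by the transcripts of its ligands, receptors and binding proteins. A member was any row of the deposited expression table whose gene symbol equalled 1 of 10 names: IGF1, IGF2, IGF1R, IGF2R, IGFBP2, IGFBP3, IGFBP4, IGFBP5, IGFBP6 and IGFBP7. Rows were found for 8 of these names among 15248 rabbit gene rows: 1 of 2 ligands, both receptors and 5 of 6 binding proteins. No row carried the symbol or the RefSeq Entrez identifier of IGF2 or IGFBP3, which were not analysed here. All 8 members were above 0 in every library, and all 8 averaged 1 FPKM or more.

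Male JW/CSK rabbits of 9 months made up all 3 groups, with 1 library for each. The first group carried a mouse PGC1-alpha gene and ate a high cholesterol diet for 20 weeks, the second was non-transgenic on that diet for the same time, and the third was non-transgenic on chow. PGC1-alpha is a transcriptional coactivator of mitochondrial genes. The labels name neither the promoter of the transgene nor the number of founder lines, and no transgenic rabbits on chow are among the groups, so a genotype difference was measured on the cholesterol diet only. Each library was made from the pooled RNA of 5 rabbits, so the differences carry no error, no replicate check and no p-value. Per the sample descriptions, the chow library was run on a lane apart from the cholesterol libraries, and lane and diet cannot be told apart.

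IGF1 and IGF2 are small peptide hormones that drive growth and survival. They act through IGF1R, a receptor tyrosine kinase of the cell surface, whereas IGF2R carries no kinase, removes IGF2 from outside the cell and sorts enzymes tagged with mannose 6-phosphate to lysosomes. The binding proteins hold IGFs in blood and matrix and are cut by proteases that free them. In arteries, smooth muscle cells and macrophages are both known sources of IGF1, and IGF1 is known to promote the growth, migration and survival of smooth muscle cells.

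Levels are given in FPKM, a count of fragments divided by gene length and by the mapped total, which is a per-length scale, so levels can be set side by side between genes. FPKM summed to 824460 in the transgenic library, 903706 in the cholesterol-fed non-transgenic library and 943181 in the chow library. The absolute depth is unknown. If no further scaling was applied, small whole-number ratios among low values put the transgenic library at 1.26 times the fragments of the chow library. The cholesterol-fed non-transgenic library comes to 1.29 times on the same condition. Mouse Ppargc1a stood at 12.8 FPKM in the transgenic library and was listed at 0 in each non-transgenic library, as the labels have it. A difference is that of log2(FPKM + 1) between 2 libraries, and it was called 2-fold at 1 or more.

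The members' levels spanned a wide range in the media. IGFBP7 was the most abundant member in each library, ranking 103, 75 and 120 among all rows in the transgenic, cholesterol-fed non-transgenic and chow libraries. IGF1 had the lowest level in the chow library, at 12.9 FPKM, and IGF1R the lowest in the transgenic and the cholesterol-fed non-transgenic library, at 17.6 and 16.3 FPKM. In the chow library the order from high to low was IGFBP7, IGFBP6, IGFBP5, IGFBP4, IGFBP2, IGF2R, IGF1R and IGF1. In the transgenic library IGFBP2 stood second. Without replicates, it cannot be said which neighbours in these orders differ beyond the spread between animals.

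**Figure D1:**
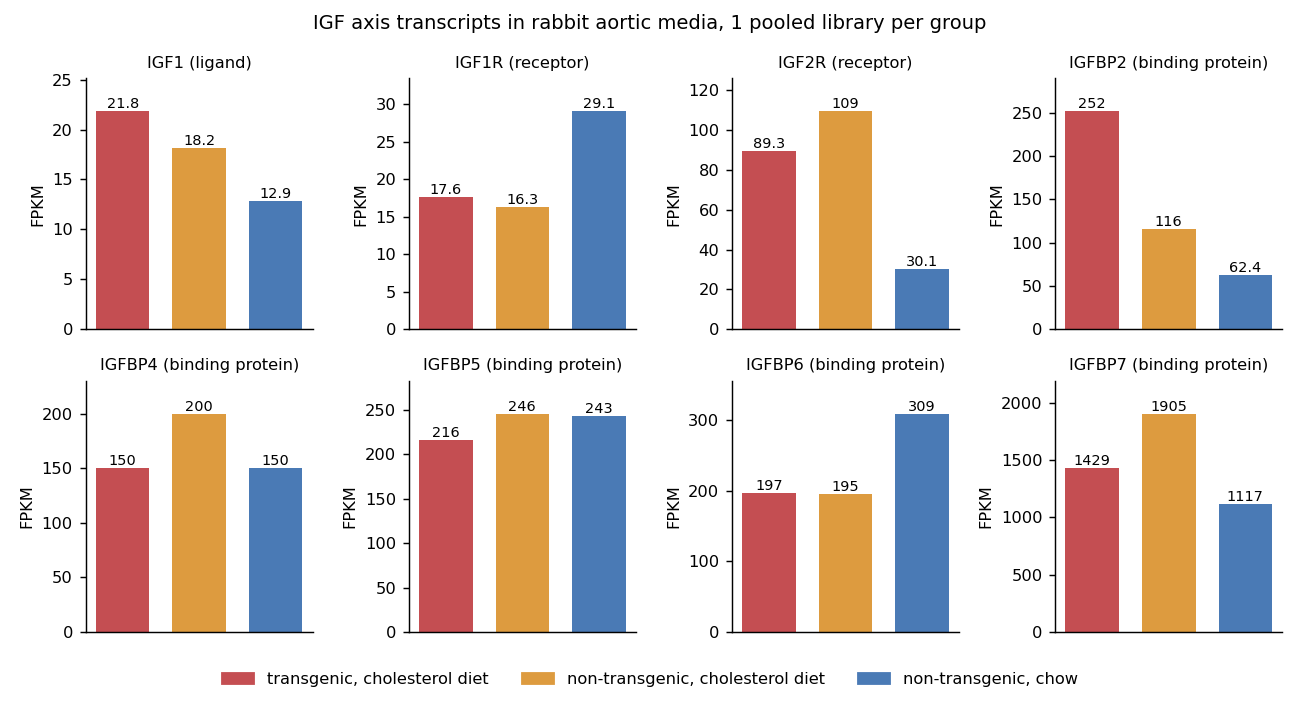
FPKM of the 8 members in the pooled library of transgenic rabbits on the cholesterol diet, non-transgenic rabbits on that diet and non-transgenic rabbits on chow, 1 bar per library, each panel with its own linear axis from 0. IGFBP2 stands at 252, 116 and 62.4 FPKM in that order, and IGF2R is lowest on chow, at 30.1 FPKM.

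IGF1 was somewhat higher on the diet and higher again in the transgenic library, and was not called 2-fold in any comparison. The ligand gene (ENSOCUG00000014689, OryCun2.0 chromosome 4, 81679741 to 81750192, protein-coding) stood at 21.8 FPKM in the transgenic library, 18.2 in the cholesterol-fed non-transgenic library and 12.9 in the chow library. Its diet difference was 0.47 and its genotype difference 0.25 on the log2 scale. Set against chow, the transgenic library differed by 0.72. That value became 0.999, at the edge of a call, when libraries were rescaled without the genes of mitochondrial DNA. Of the 11597 rabbit genes averaging 1 FPKM or more, the genes kept in every comparison, 72.0% had a lower diet difference and 80.2% a lower genotype difference. In both comparisons IGF1 therefore lay in the upper part of the range of all genes, and not at its end. Macrophage markers were far higher beside it on the diet. Of a list of 14, 13 were kept and 12 were called 2-fold higher, against 15.9% of all genes. Their summed level was 3889, 3955 and 69.5 FPKM in the transgenic, cholesterol-fed non-transgenic and chow libraries. Their part in the IGF1 values was not tested. In pooled tissue a change in the number of cells of a type and a change in RNA per cell cannot be told apart.

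Between the receptors, IGF2R was higher and IGF1R lower on the cholesterol diet. IGF2R (ENSOCUG00000008785, chromosome 12, 149773364 to 149860242) stood at 89.3 FPKM in the transgenic library, 109 in the cholesterol-fed non-transgenic library and 30.1 in the chow library. Both cholesterol libraries were thus well above the chow library. Its diet difference of 1.83, a 3.63-fold ratio of FPKM, was the only one of the 8 members called 2-fold higher, and none was called 2-fold lower. Over all 11597 genes, 15.9% were called 2-fold higher and 6.99% lower on the diet, so 1 of 8 members is near the background share. The genotype difference of IGF2R was -0.29, under 2-fold.

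IGF1R (ENSOCUG00000014795, on the unplaced scaffold GL018753, 1410896 to 1660832) stood at 17.6 FPKM in the transgenic library, 16.3 in the cholesterol-fed non-transgenic library and 29.1 in the chow library. Its diet difference was -0.80 and its genotype difference 0.11, so both cholesterol libraries lay together below the chow library, by less than 2-fold. Of all genes kept, 10.7% had a lower diet difference. The insulin receptor INSR, which forms hybrid receptors with IGF1R, stood at 23.2, 16.2 and 27.5 FPKM in the same order of libraries, with differences of -0.73 for the diet and 0.49 for the genotype.

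Ratios within a library do not depend on how that library was scaled. IGF2R transcripts were 5.06 times those of IGF1R in the transgenic library and 6.71 times in the cholesterol-fed non-transgenic library, against 1.04 times in the chow library. INSR stood at 1.32, 0.994 and 0.945 times IGF1R in these libraries, so this ratio moved far less than that of IGF2R to IGF1R. Smooth muscle markers were lower beside IGF1R on the diet: 8 of 9 were called 2-fold lower, against 6.99% of all genes. Their summed level was 16366 FPKM in the transgenic library, 11963 in the cholesterol-fed non-transgenic library and 28950 in the chow library. The part of these cells, or of the macrophages, in the receptor values was not tested.

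IGFBP2 was the member with the largest genotype difference. This binding protein (ENSOCUG00000008561, chromosome 7, 158054321 to 158081892) is secreted and is known in mammals to bind integrins as well as IGFs. It stood at 252 FPKM in the transgenic library, 116 in the cholesterol-fed non-transgenic library and 62.4 in the chow library. The 3 libraries were spread out, with the transgenic one highest and the chow one lowest. The genotype difference was 1.11, a 2.17-fold ratio of FPKM, and 162 of 11597 genes had a larger one.

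IGFBP2 was the 1 member of 8 called 2-fold higher in the genotype comparison, where 1.70% of all genes were called higher and 2.10% lower, and no member was called lower. The other 7 members differed by less than 1.5-fold on the log2(FPKM + 1) scale between these libraries. The diet difference of IGFBP2 was 0.89, under 2-fold, and became 1.07 when each library was rescaled without the genes of mitochondrial DNA. Set against chow, the transgenic library was 4.04-fold higher in IGFBP2, a difference of 2.00. In that comparison IGFBP2 and IGF2R, 2 of 8 members, were called 2-fold higher and none lower, against 12.6% and 2.53% of all genes. Because 1 library serves in both the diet and the genotype comparison, their values for a gene are not independent.

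Cell type markers moved beside IGFBP2 in different ways. In the genotype comparison all 9 smooth muscle markers were above 0, with a median of 0.55 and none called 2-fold, and 6 of 10 fibroblast markers were above 0, with a median of 0.31. Of the fibroblast markers 2 were called 2-fold higher for the genotype and none lower, against 1.70% and 2.10% of all genes. The 2 called were DCN, at 247 FPKM in the transgenic library and 121 in the cholesterol-fed non-transgenic library, and PI16, at 298 FPKM in the transgenic library and listed at 0 in the other. On chow PI16 stood at 411 FPKM. Its call rests on that listed 0, which may not mean absence. The 4 fibroblast markers below 0 were COL1A1, COL1A2, LUM and PDGFRA. COL1A1 stood at 1245 FPKM in the transgenic library and 1992 in the cholesterol-fed non-transgenic library, and LUM at 196 and 370. The fibroblast markers summed to 3294 FPKM in the transgenic library, 4277 in the cholesterol-fed non-transgenic library and 2629 in the chow library. On the diet, where IGFBP2 was also higher, all 9 smooth muscle markers were below 0, with a median of -1.51. The part of these cell types in the IGFBP2 values was not tested.

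IGFBP5 (ENSOCUG00000025513, chromosome 7, 158093549 to 158109173) is the neighbour of IGFBP2, 11656 bp away with no other row of the table starting between them. The protein binds to extracellular matrix. It stood at 216 FPKM in the transgenic library, 246 in the cholesterol-fed non-transgenic library and 243 in the chow library. Its diet difference was 0.01 and its genotype difference -0.18, both closer to 0 than those of IGFBP2. IGFBP2 was 1.17 times IGFBP5 in the transgenic library, 0.474 times in the cholesterol-fed non-transgenic library and 0.256 times in the chow library.

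**Figure D2:**
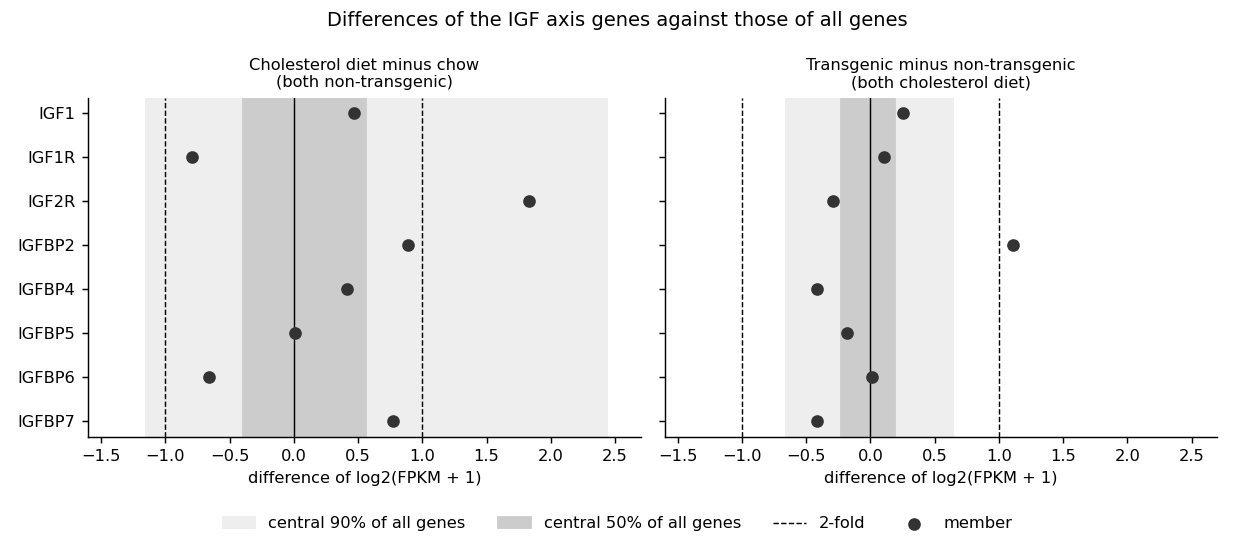
Differences of log2(FPKM + 1) of the 8 members, for the cholesterol diet minus chow in non-transgenic rabbits and for transgenic minus non-transgenic rabbits on that diet. Grey bands hold the central 50% and 90% of 11597 genes and dashed lines mark 2-fold. IGF2R lies past 2-fold for the diet, at 1.83, and IGFBP2 for the genotype, at 1.11.

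The remaining binding proteins did not all share a pattern, and none of them reached 2-fold. IGFBP6 (ENSOCUG00000001412, chromosome 4, 36971585 to 36976170), which prefers IGF2 over IGF1, stood at 197 FPKM in the transgenic library, 195 in the cholesterol-fed non-transgenic library and 309 in the chow library. It was the other member, besides IGF1R, that was lower on the diet, with a difference of -0.66. Its genotype difference was 0.01.

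IGFBP4 (ENSOCUG00000002828, chromosome 19, 41584616 to 41594308), an inhibitor of IGF action that the protease PAPPA cuts, stood at 150.1 FPKM in the transgenic library, 200.0 in the cholesterol-fed non-transgenic library and 149.8 in the chow library. The transgenic and the chow library lay close together and the cholesterol-fed non-transgenic library was above both, with differences of 0.41 for the diet and -0.41 for the genotype. IGFBP7 (ENSOCUG00000025244, chromosome 15, 91986673 to 91995074), a relative that binds IGFs weakly and is found in vessel basement membranes, stood at 1429, 1905 and 1117 FPKM in the transgenic, cholesterol-fed non-transgenic and chow libraries. Like IGFBP4, it was highest in the cholesterol-fed non-transgenic library, with differences of 0.77 for the diet and -0.42 for the genotype. Endothelial markers stood beside it with 8 of 9 above 0 on the diet (median 0.93), a summed level of 193, 165 and 117 FPKM in those libraries, and 5 of 9 above 0 for the genotype (median 0.07). Their part in the IGFBP7 values was not tested.

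In FPKM as deposited, the summed level of IGFBP2, IGFBP4, IGFBP5 and IGFBP6 was close in all libraries, while its make-up was not. Such a sum, unlike the shares, depends on how each library was scaled. The FPKM total was lower in the transgenic than in the chow library, so a common total would set the transgenic sum further above the chow sum. The 4 genes summed to 815 FPKM in the transgenic library, 757 in the cholesterol-fed non-transgenic library and 764 in the chow library. IGFBP2 gave 30.9% of that sum in the transgenic library, 15.4% in the cholesterol-fed non-transgenic library and 8.16% in the chow library. IGFBP6 gave 24.2%, 25.8% and 40.4% in the same libraries. IGFBP2 thus had the highest share of the 4 in the transgenic library and the lowest in the chow library, where IGFBP6 had the highest. IGFBP5 gave 26.5%, 32.4% and 31.8%, and IGFBP4 gave 18.4%, 26.4% and 19.6%. With IGFBP7 added, the 5 binding proteins summed to 2244, 2663 and 1881 FPKM, of which IGFBP7 was 63.7%, 71.6% and 59.4%.

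**Figure D3:**
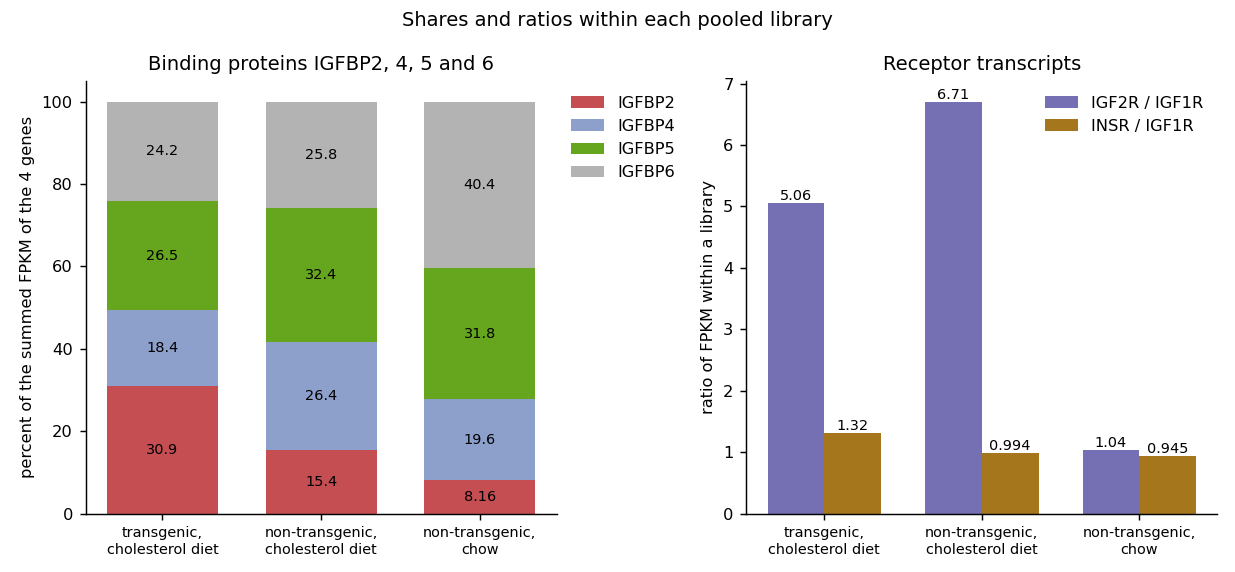
Left, shares of IGFBP2, IGFBP4, IGFBP5 and IGFBP6 in their summed FPKM, and right, the FPKM ratios of IGF2R and INSR to IGF1R, within each of the 3 pooled libraries. IGFBP2 makes up 30.9% of the sum in the transgenic library, and IGF2R exceeds IGF1R 6.71-fold in the cholesterol-fed non-transgenic library, against 1.04-fold in the chow library.

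As a group, the 8 members had a median difference of 0.44 for the diet and -0.09 for the genotype, against 0.02 and -0.01 over all 11597 genes. On the diet 6 members were above 0 and 2 below, with IGFBP5 above by 0.01 and at -0.0027 when libraries were scaled to equal median ratios, and for the genotype 4 were above and 4 below.

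Other genes of the pathway were read as 6 lists. Of 29 IGF receptor signalling genes kept from 36 names, 3 were called 2-fold higher on the diet and 1 lower, with a median of -0.09. Over all genes 15.9% were called higher and 6.99% lower. None of the 29 was called for the genotype, where 1.70% of all genes were called higher and 2.10% lower, and their median was 0.01. The genes called on the diet include the kinase subunits PIK3CB, at 17.8 FPKM in the cholesterol-fed non-transgenic library and 3.02 in the chow library, and PIK3CD, at 5.26 and 1.05. EIF4EBP1, a repressor of translation that the mTOR kinase controls, stood at 122 FPKM in the transgenic library and 197 in the cholesterol-fed non-transgenic library, against 51.3 in the chow library. GRB14, an adaptor that restrains the insulin receptor, was the gene called lower on the diet, at 25.8 FPKM in the cholesterol-fed non-transgenic library and 65.5 in the chow library. GRB10, a related adaptor, was among the larger genotype differences at -0.50. GRB14 was named after its value was seen. Macrophage markers were also higher on the diet, and the part of these cells in the signalling list was not tested.

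Of 5 partners of IGF2R in sorting to lysosomes, kept from 7 names, 4 were called 2-fold higher on the diet and none lower, against 15.9% and 6.99% of all genes. The median was 1.24, against 0.02 over all genes. The gene not called was the adaptor GGA3, named after its value was seen, at 19.5 FPKM in the cholesterol-fed non-transgenic library and 17.3 in the chow library. M6PR, the other mannose 6-phosphate receptor, stood at 199 FPKM in the transgenic library, 257 in the cholesterol-fed non-transgenic library and 44.2 in the chow library. GNPTAB, a subunit of the enzyme that makes the mannose 6-phosphate tag, stood at 30.2, 35.2 and 8.47 FPKM in these libraries. For the genotype none of the 5 was called, against 1.70% of all genes higher and 2.10% lower, and the median was -0.17. The macrophage markers given beside IGF1 moved with this list too, and their part in it was not tested.

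Proteases that cut binding proteins, and their inhibitors, were a mixed list of 11 genes kept from 16 names. On the diet 6 were called 2-fold higher and 1 lower (median 1.13), against 15.9% and 6.99% of all genes. CTSD, the lysosomal protease cathepsin D, stood at 3080 FPKM in the cholesterol-fed non-transgenic library and 115 in the chow library. PLAU, urokinase, stood at 118 and 17.4 FPKM in that order. The gene called lower, PRSS23, a serine protease named after its value was seen, stood at 95.1 and 192 FPKM. PAPPA, which cuts IGFBP4, was low throughout, at 0.833, 1.23 and 1.78 FPKM in the transgenic, cholesterol-fed non-transgenic and chow libraries. Macrophage markers were far higher beside CTSD and PLAU on the diet, and the part of these cells in the list was not tested.

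For the genotype, 10 of these 11 genes were below 0 (median -0.28). ADAM12, a metalloprotease, was at 1.29 FPKM in the transgenic library and 2.74 in the cholesterol-fed non-transgenic library. MMP3 was the 1 gene called 2-fold lower, against 2.10% of all genes, and none was called higher, against 1.70%. It stood at 0.661 and 5.73 FPKM in that order. On chow MMP3 was listed at 0, and its call as higher on the diet rests on that 0.

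The list of circulating partners and the growth hormone axis had 8 genes kept from 14 names. On the diet 3 were called 2-fold higher and none lower (median -0.04), against 15.9% and 6.99% of all genes. The 3 called were the cytokine signalling inhibitors CISH, SOCS1 and SOCS3. CISH stood at 5.41 FPKM in the transgenic library, 3.51 in the cholesterol-fed non-transgenic library and 0.45 in the chow library. SOCS1 stood at 2.92, 4.27 and 1.44 FPKM, and SOCS3 at 85.1 and 45.8 FPKM in the cholesterol libraries, while on chow it was listed at 0. The call of SOCS3 rests on that listed 0, which may not mean absence. GHR, the growth hormone receptor, stood at 23.2, 17.1 and 28.65 FPKM. For the genotype none of the 8 was called, against 1.70% of all genes higher and 2.10% lower, and the median was 0.40.

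Of 12 names of secreted relatives with an IGFBP-type domain, which include older and newer names of the same genes, 7 genes were kept. On the diet 1 was called higher (WISP1) and 1 lower (NOV), against 15.9% and 6.99% of all genes. For the genotype 2 were called lower (ESM1 and WISP1) and none higher, against 2.10% and 1.70%. WISP1, a matricellular protein, stood at 3.70 FPKM in the transgenic library, 8.79 in the cholesterol-fed non-transgenic library and 3.13 in the chow library. NOV, of the same family, stood at 507, 498 and 1162 FPKM. ESM1, a proteoglycan of endothelial cells, stood at 3.61, 9.83 and 7.78 FPKM. The list had a median of 0.21 for the diet and 0.03 for the genotype. Among the 2 IGF mRNA binding proteins kept from 3, IGF2BP3 stood at 2.95, 7.06 and 0.969 FPKM, called higher for the diet and lower for the genotype, and IGF2BP2 at 1.80, 1.29 and 2.06 FPKM, not called. Their median was 0.81 on the diet and -0.37 for the genotype.

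**Figure D4:**
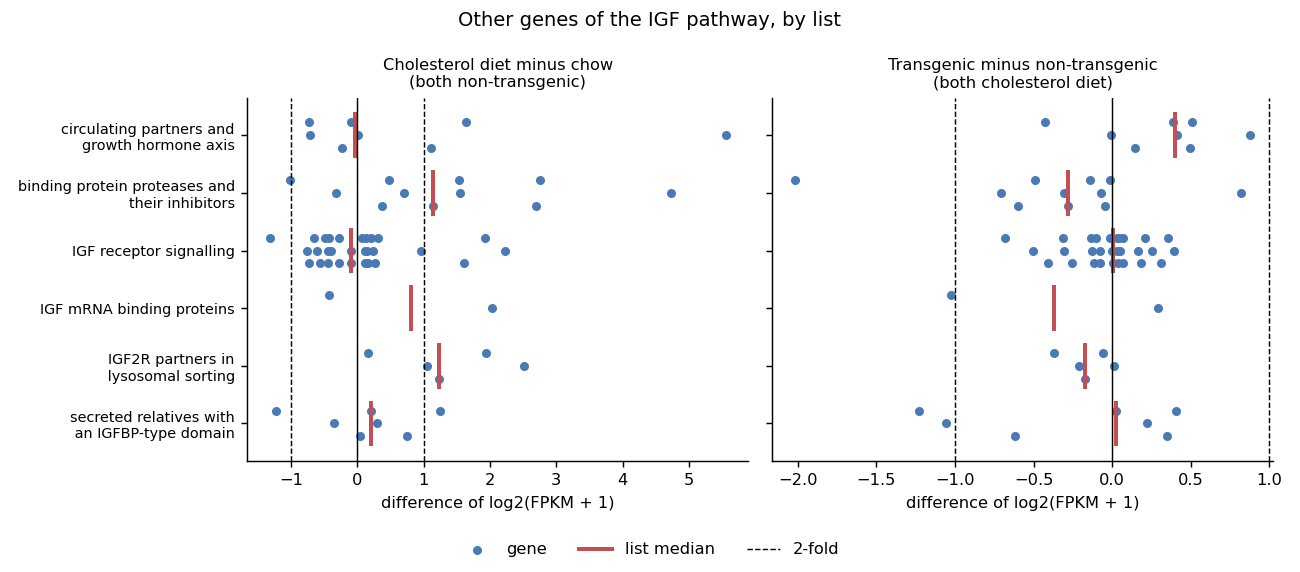
Differences of log2(FPKM + 1) of the other IGF pathway genes that average 1 FPKM or more, by list, for the diet and for the genotype. Points are genes, red bars list medians and dashed lines 2-fold. The IGF2R partners centre on 1.24 for the diet, and IGF receptor signalling genes on -0.09.

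The remaining marker lists were read for the make-up of the tissue. Beside the counts below, 15.9% of all genes were called higher and 6.99% lower on the diet. For the genotype these shares were 1.70% and 2.10%. Of 10 smooth muscle markers, which define the media, 9 had a row, and actin ACTA2 stood at 6594, 5161 and 12462 FPKM in the transgenic, cholesterol-fed non-transgenic and chow libraries. Proliferation markers had 6 of 6 genes called 2-fold higher on the diet, and 4 of 6 called lower for the genotype. Their summed level was 23.2, 59.0 and 1.59 FPKM in the same order of libraries, so the diet calls are set against low chow values. Fibroblast markers had 3 of 10 called higher and 3 lower on the diet, and PI16 was listed at 0 in the cholesterol-fed non-transgenic library. Nerve markers had 4 of 4 called lower on the diet, with S100B listed at 0 in that library, and 2 of 4 called higher for the genotype. The calls of PI16 and S100B rest on these listed 0 values, which may not mean absence. Both adipocyte markers kept from 5 names, ADIPOQ and FABP4, were called higher on the diet and neither for the genotype. Neither of the T cell markers kept from 5 names was called in either comparison. Macrophage markers had 2 of 13 called higher and 1 lower for the genotype, and endothelial markers 3 of 9 called higher and 1 lower on the diet.

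Genes with the most similar pattern were sought by the Euclidean distance between log2(FPKM + 1) values centred over the 3 libraries, among 8149 other genes above 0 in every library. Nearest to IGF1 were HNRNPLL at a distance of 0.0152, ACSS1 at 0.0229 and AMD1 at 0.0263. Nearest to IGF2R, the member with the highest diet difference, were GLA at 0.0261, STK10 at 0.0277 and GPX1 at 0.0437. GLA, the lysosomal alpha-galactosidase, stood at 21.8 FPKM in the transgenic library, 27.6 in the cholesterol-fed non-transgenic library and 6.97 in the chow library. Nearest to IGF1R, the member with the lowest diet difference, were AKAP1 at 0.00446, SIPA1L2 at 0.00466 and CRISPLD1 at 0.00612. Each distance rests on 3 values from the same libraries and is a description only.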

How the data were processed

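Polyadenylated RNA of aortic media was made into TruSeq libraries, per the labels' protocols. The deposited values are FPKM, made by the authors and named so in the file headers. The submitters' processing notes name the genome build OryCun2.0. No source used here names the aligner, the counting program or a scaling step between libraries. Value columns were matched to libraries by their number in the sample descriptions. The same values under group names in the authors' other sheets (1769 of 1769 and 9933 of 9934 rows) gave the same match.

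Samples were grouped by title. Differences of log2(FPKM + 1) were taken with pandas 2.3.3 over 11597 rabbit genes averaging 1 FPKM or more, and called 2-fold at 1. For low genes the pseudocount shrinks the difference below the true ratio. With 1 library per group no test was run. A run on simulated data with large built-in changes checked the code only, and says nothing of the spread between animals. Alternatives were other pseudocounts, filters and scalings. The depth is unknown, so no counting interval is given. Relative depth, which takes in any scaling step between libraries, came from genes with a mean under 0.15 FPKM. Of the ratios to chow, 83.4% of 457 and 81.9% of 420 lay within 1% of a small whole-number ratio.

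The members and lists were chosen with earlier results of these data known. All members were described. From each pathway list the text names the 2 genes with the largest absolute difference in each comparison, among genes above 0 in every library; 1 gene that this rule took is not reported here. INSR beside IGF1R, and GRB14, GHR, MMP3, PAPPA, PRSS23, SOCS3, GGA3, DCN, PI16, COL1A1, COL1A2, LUM, PDGFRA and ACTA2, were named after their values were seen. ADIPOQ and FABP4 were named as the only adipocyte markers kept. The genes of nearest pattern were the 3 at the smallest distance with a symbol and a mean of 5 FPKM or more. RefSeq names came from assembly mOryCun1.1, whose coordinates were not used.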

Additional observations from a re-analysis of the deposited data

How the results depend on the processing

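No paired analysis was possible because each group has 1 library, and no library could be left out for the same reason. Under 8 alternatives each, 187 of 192 member differences kept their sign and their side of 2-fold. Alternatives that only change which genes are kept cannot alter a member's difference, so their share of this agreement was fixed in advance. Only the other pseudocounts and the rescalings could move a member. IGFBP2 passed 2-fold for the diet, at 1.07, when libraries were rescaled without the genes of mitochondrial DNA, which makes 2 members called higher. These genes held 9.15%, 10.9% and 3.06% of the FPKM in the transgenic, cholesterol-fed non-transgenic and chow libraries. That rescaling moved the median of all genes to 0.19 for the diet and 0.27 for the transgenic library against chow, and rescaling to a common total moved it to 0.11 for the genotype and 0.18 against chow. Values near 0 changed sign: IGFBP5 for the diet to -0.0027 and IGFBP4 against chow to -0.012 with equal median ratios, and IGFBP5 against chow to 0.021 and 0.11 under the other rescalings. The genotype difference of IGFBP2 ranged from 1.08 to 1.24 and the diet difference of IGF2R from 1.70 to 2.01.

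Counts over all genes moved with the treatment of low values. A pseudocount of 5 gave 1118 higher and 413 lower for the diet, 75 and 96 for the genotype, and 817 and 138 for the transgenic library against chow. With a pseudocount of 0.1, 323 genes were 2-fold higher for the genotype. With a mean of at least 5 FPKM 117 were higher and 118 lower for the genotype and 193 lower against chow. Without genes listed at 0, 160 were lower for the genotype. Against chow, 195 were lower after rescaling to a common total and 165 without mitochondrial DNA genes.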
